A study of Mus musculus with 4 samples.

Results

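The respiratory chain genes described here are the 101 genes whose symbols mark them as mitochondrially encoded subunits (mt-Nd, mt-Co, mt-Atp and mt-Cytb) or as nuclear genes of the Nduf, Uqcr, Cox4 to Cox8 and Atp5 families, out of 27998 genes listed. The 13 mitochondrially encoded genes comprise 7 subunits of complex I, 1 of complex III, 3 of complex IV and 2 of ATP synthase. Of the 88 nuclear genes, 36 encode complex I subunits, 8 complex III, 19 complex IV and 15 ATP synthase subunits. The other nuclear genes are 8 assembly factors of complex I, the supercomplex factor Cox7a2l and Atp5s, a factor of ATP synthase. Cox7b2 and Cox8c had 0 UMIs in all kept cells, and the other 99 genes were detected.

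The transcripts were counted in adult WT C57BL/6 hepatic leukocytes, enriched with CD45 beads, by sequencing RNA of single cells captured in droplets, where each captured molecule carries a unique molecular identifier (UMI). The 2 exercise libraries came from mice that ran at 12.5 m/min on a motor-driven treadmill, and the 2 sedentary libraries from mice kept on a stationary one. Both lasted 60 min a day on 5 days a week over 4 weeks, and the labels list no other treatment or allele. As a level of hepatic injury the labels give serum alanine aminotransferase, at 26 (replicate 1) and 59 U/L (replicate 2) with exercise and at 33 (replicate 1) and 56 U/L (replicate 2) without. The labels do not state that the replicates are separate animals, so p-values measure the spread between these samples, which may be technical. The series title concerns Kupffer cells (macrophages that reside in the liver) and their metabolism after exercise.

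The respiratory chain passes electrons from NADH through complex I, and from succinate through complex II, to complex III, cytochrome c and complex IV, where oxygen is reduced. Complexes I, III and IV pump protons across the inner mitochondrial membrane, and ATP synthase uses the gradient to make ATP. The catalytic cores of these complexes are partly encoded by mitochondrial DNA, which is transcribed as long polycistronic RNAs and then cut into separate messengers, while the remaining subunits come from nuclear genes. Macrophages are known to shift between oxidative phosphorylation and glycolysis as they are activated. A high share of mitochondrial UMIs is also widely used as a sign of damaged cells, so the limit on that share acts on the mitochondrially encoded genes themselves.

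After filtering, 2849 and 4078 cells of the exercise libraries and 3896 and 3737 of the sedentary libraries were kept, with median depths of 2718, 2841, 2027.5 and 2382 UMIs per cell in the same order. Cells were clustered with the 101 genes left out, and the 12 classes that held 20 or more cells in each library were compared. Kupffer-like cells were the largest class, with 1308, 1929, 1529 and 1542 cells. Pairs of libraries shared between 11 and 31 cell barcodes, against 16.07 to 24.09 expected for random draws from a common barcode list. The limit of 20% mitochondrial UMIs was exceeded by 2.47% and 1.01% of barcodes in the exercise libraries and by 3.29% and 2.62% in the sedentary libraries. In Kupffer-like cells all 9 hepatocyte markers followed had UMIs in every library, and their summed level was 148 and 112 counts per 1000000 UMIs (CPM) in exercise replicates 1 and 2 against 1450 and 696 CPM in sedentary replicates 1 and 2. The summed level of 5 red blood cell genes was 94.9 and 280 CPM against 2540 and 864 CPM, with Alas2 at 0 in exercise replicate 1 and all 5 detected in the other libraries. The 20 immediate early and heat shock genes followed summed to 4880 and 4870 CPM against 5650 and 7990 CPM. The part of red blood cell and stress transcripts in the comparisons was not tested; values in cells without a hepatocyte UMI are given below.

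The promoters of 3 genes described below are shown: Cox5a, the complex IV subunit with its highest level in Kupffer-like cells, Atp5g3, a gene for the c subunit of ATP synthase with its highest level in cycling Kupffer-like cells, and Cox6a1, the widely expressed partner of the restricted isoform Cox6a2. Each line gives 220 bases, from 250 to 31 bases before the RefSeq start site, 5′ to 3′ on the strand of the gene (RefSeq, GRCm38.p6). Capitals mark exact matches, on either strand, to 4 motifs of factors known to regulate nuclear respiratory genes: GCATGCGC (NRF1), CCGGAAG (ETS family, to which GABP belongs), AAGATGGC (YY1) and TCAAGGTCA (ERRalpha).
Cox5a, chr9:57520982-57521201, plus strand: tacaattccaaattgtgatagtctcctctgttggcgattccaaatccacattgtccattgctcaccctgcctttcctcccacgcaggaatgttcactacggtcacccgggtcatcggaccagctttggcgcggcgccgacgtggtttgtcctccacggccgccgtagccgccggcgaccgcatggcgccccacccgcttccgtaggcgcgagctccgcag
Cox6a1, chr5:115348989-115349208, minus strand: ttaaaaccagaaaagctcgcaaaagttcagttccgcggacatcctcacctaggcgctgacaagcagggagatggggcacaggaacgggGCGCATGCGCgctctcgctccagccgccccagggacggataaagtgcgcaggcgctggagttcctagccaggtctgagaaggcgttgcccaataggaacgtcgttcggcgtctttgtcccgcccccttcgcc
Atp5g3, chr2:73911357-73911576, minus strand: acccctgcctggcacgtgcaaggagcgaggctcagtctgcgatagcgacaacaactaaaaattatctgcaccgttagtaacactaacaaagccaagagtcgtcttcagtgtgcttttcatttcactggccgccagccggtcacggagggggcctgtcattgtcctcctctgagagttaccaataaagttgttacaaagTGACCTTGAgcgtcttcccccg

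The capitals in Cox6a1 are overlapping NRF1 matches on both strands (an ETS match 16 bases before the start lies outside the printed stretch), those in Atp5g3 are an ERRalpha match on the other strand, and the Cox5a window holds none of the 4 motifs. A window was found for 73 of the 88 nuclear genes. Over the 250 bases before the start site, the NRF1 motif was in 8 of 73 windows (11.0%, against 2.32% of 27025 genes), and the ETS motif was in 11 (15.1%, against 7.05%). The ERRalpha motif was in 1 window (1.37%, against 0.366%), and the YY1 motif was in 0 windows (against 1.59%). By complex, NRF1 or ETS matches were spread over complex I (3 and 3 of 32 windows), complex III (0 and 2 of 5), complex IV (1 and 2 of 13) and ATP synthase (3 and 3 of 14). These matches are descriptions of letters in the window and not binding sites.

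Taken as whole classes, Kupffer-like and cycling Kupffer-like cells had higher mitochondrially encoded shares than the other 10 classes compared, while their nuclear subunit shares lay within the range of those classes. The 13 mitochondrially encoded genes together made up 6.88% ± 0.901 of UMIs (SD, n = 4 libraries) in Kupffer-like cells and 6.63% ± 0.356 in cycling Kupffer-like cells. Ranges of these classes overlapped, but the lowest library of either (6.01%) lay above the highest library (4.60%) of the 10 other classes. B-like cells followed at 4.46% ± 0.166, pDC-like cells (resembling plasmacytoid dendritic cells) at 4.32% ± 0.161 and endothelial-like cells at 4.08% ± 0.133. NK or ILC-like cells had 2.67% ± 0.247, and the lowest mean was 2.41% ± 0.151 in cDC1-like cells, which resemble type 1 conventional dendritic cells. A second endothelial-like cluster, left out of the comparisons because it held 14 to 23 cells per library, had 8.49% ± 1.40. Its Kupffer markers had a mean log2 ratio to all other cells of 0.228, against -3.463 in endothelial-like cells. The cluster thus carried markers of both cell types, and with doublets kept it held 20 to 36 cells per library. Within Kupffer-like cells the share was uneven: of 4 clusters, described below, those numbered 3 and 1 had 11.8% and 7.69%, and those numbered 4 and 6 had 4.84% and 3.85%, in the range of B-like, pDC-like and endothelial-like cells or under it. Class levels are descriptions without a test, since classes were made from the counts of the same cells.

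The 78 nuclear subunit genes had a narrower range, from 1.59% ± 0.0298 of UMIs in B-like cells to 2.59% ± 0.109 in monocyte-like cells. Kupffer-like cells, at 2.20% ± 0.0338, stood in the middle of the order. Over the 12 class means, mitochondrially encoded and nuclear levels had a Pearson r of 0.242 and a Spearman rho of 0.238, where all classes share the same 4 libraries. The ratio of mitochondrially encoded to nuclear subunit UMIs was 3.13 ± 0.437 in Kupffer-like, 2.82 ± 0.188 in cycling Kupffer-like and 2.81 ± 0.0541 in B-like cells, and 1.16 ± 0.0878 in cDC1-like cells. B-like cells had the lowest nuclear mean of the 12 classes, and Kupffer-like cells the highest mitochondrially encoded mean.

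**Figure D1:**
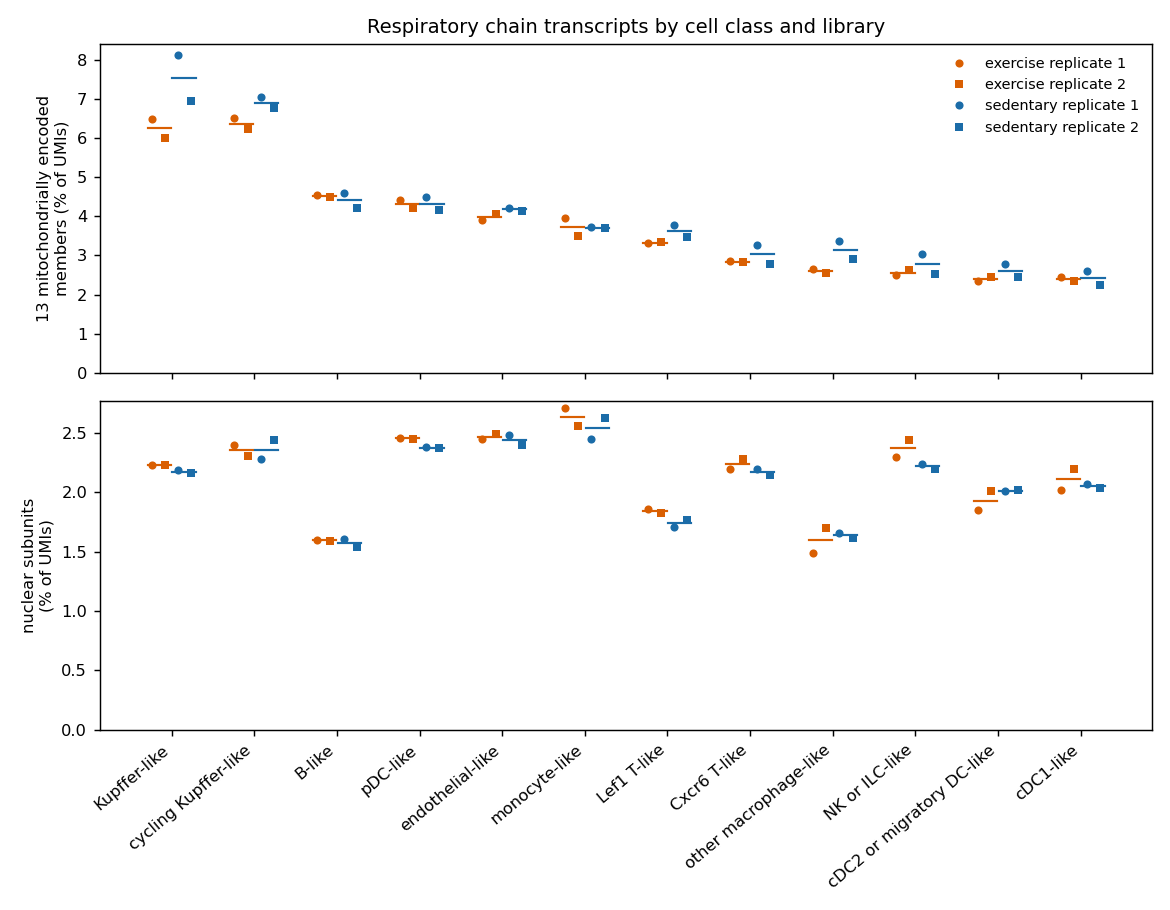
Share of UMIs (%) from the 13 mitochondrially encoded genes (top) and the 78 nuclear subunit genes (bottom) in the 12 tested classes, with 1 point per library and a line at each group mean. All 8 points of the 2 Kupffer classes in the top panel lie at 6.01% or above, and no other point there exceeds 4.60%; the bottom panel shows no such gap.

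For each of the 4 complexes, the mitochondrially encoded part had its 2 highest means in the Kupffer classes and its lowest in cDC1-like cells. Mitochondrially encoded complex I genes summed to 14240 CPM in Kupffer-like and 13500 CPM in cycling Kupffer-like cells, against a lowest class mean of 4593 CPM in cDC1-like cells. The mitochondrially encoded complex IV genes summed to 33440 CPM in Kupffer-like, 33340 CPM in cycling Kupffer-like and 11880 CPM in cDC1-like cells. Of the 13 genes, 12 had a mean in Kupffer-like cells over 1.5 times the median of the other 11 classes, with a median ratio of 1.92. The ratio was highest for mt-Nd3, a complex I subunit, at 2.82, and lowest for mt-Nd6, the complex I subunit read from the light strand of the genome, at 1.19. mt-Nd6 had 434 UMIs in all kept cells, so its ratio rests on few counts.

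Nuclear complexes peaked in other cells. Complex I subunits were highest in endothelial-like cells (8131 CPM) and lowest in other macrophage-like cells (4966 CPM). Complex III reached 3173 CPM in monocyte-like cells against 1856 CPM in other macrophage-like cells. Complex IV reached 8137 CPM in pDC-like and 8098 CPM in monocyte-like cells against 4322 CPM in B-like cells, but without Cox6a2, described below, pDC-like cells had 6475 CPM, under the means of 5 other classes. ATP synthase reached 7323 CPM in monocyte-like cells against 4561 CPM in other macrophage-like cells. Of 79 nuclear genes with at least 20 CPM in their highest class, 21 peaked in endothelial-like and 15 in monocyte-like cells, and 30 were lowest in B-like cells. Kupffer-like cells held the highest mean of 1 of them, Cox5a.

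Within the nuclear genes, Kupffer-like cells differed from the other classes gene by gene. Relative to the median of the other 11 classes, 56 of the 79 genes lay within 1.5-fold, 6 lay above and 17 below, with a median ratio of 1.00. The 6 above were Cox5a, Uqcr11, Ndufa2, Ndufc1, Atp5k and Atp5g3, and the 17 below included Cox7b, Cox7a2l and the ATP synthase subunit Atp5o.

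Cox5a, a nuclear subunit close to the catalytic core of complex IV (chromosome 9, 57521274 to 57532426, plus strand), had 1320 and 1220 CPM in exercise and 1190 and 1180 CPM in sedentary Kupffer-like cells. In cycling Kupffer-like cells it had 1190, 989, 1030 and 1040 CPM. Class means elsewhere ran from 231 CPM in B-like to 526 CPM in monocyte-like cells. The ratio of Kupffer-like cells to the median of the other classes was 3.27. Uqcr11, a small subunit of complex III, had 576, 663, 636 and 594 CPM in Kupffer-like cells, 2.36 times the median of the other classes, and reached 585 CPM in endothelial-like cells.

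Cox7b, a small transmembrane subunit of complex IV (chromosome X, 106015700 to 106022450, plus strand), showed the opposite pattern. It had 83.5 and 85.2 CPM in exercise and 104 and 108 CPM in sedentary Kupffer-like cells, 0.350 times the median of the other classes, and a mean of 68.2 CPM in cycling Kupffer-like cells, where between 5 and 24 UMIs were counted per library. Class means in the other 10 classes ran from 185 CPM in endothelial-like to 363 CPM in cDC1-like cells. Cox7a2l, known as a supercomplex factor (chromosome 17, 83501918 to 83517330, minus strand), had 367, 315, 331 and 329 CPM in Kupffer-like cells against class means of 443 to 813 CPM in the 10 classes other than the Kupffer classes. Whether its protein acts in supercomplexes in this strain was not examined.

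Among subunits with tissue-specific isoforms, Cox6a2 was restricted to 1 class. Cox6a2 (chromosome 7, 128205435 to 128206387, minus strand) is known as the heart and skeletal muscle form of complex IV subunit 6A. In pDC-like cells it had 1950 and 1670 CPM in exercise and 1320 and 1710 CPM in sedentary libraries, so the lowest pDC-like library (1320 CPM) was far above the highest library of any other class (20.3 CPM). A Cox6a2 UMI was found in 91 of 98, 172 of 183, 75 of 87 and 110 of 114 pDC-like cells, or 92.9%, 94.0%, 86.2% and 96.5%. Exact 95% binomial intervals, which cover counting error only, ran from 77.1% to 99.0% over these libraries. Among the other classes the highest share in a library was 4.55%, in cDC1-like cells, followed by 4.35% in cDC2 or migratory DC-like cells. In B-like cells it was between 0.365% and 1.03%. Median depths were between 3839 and 4822 UMIs in pDC-like, between 7385 and 10070 UMIs in cDC1-like and between 1374 and 1732 UMIs in B-like cells.

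The partner isoform Cox6a1, the form of most tissues, was present in every class, with the highest mean in endothelial-like cells (777, 919, 957 and 829 CPM). Its mean of 573 CPM in pDC-like cells lay within the range of the other classes. Cox6b2, known from testis, had 24.1 and 34.5 CPM in exercise and 34.4 and 31.6 CPM in sedentary cDC2 or migratory DC-like cells, on 8 to 20 UMIs per library, and a mean of 13.9 CPM in monocyte-like cells. Cox4i1, the common form of subunit 4, was highest in monocyte-like cells (1590 CPM ± 52.1), while its hypoxia-linked form Cox4i2 had 39 UMIs in all cells. Cox8a was highest in NK or ILC-like cells (1230 CPM ± 89.1), and its muscle form Cox8b had 2 UMIs. Ndufa4, a complex IV subunit despite its name, peaked in endothelial-like cells (748 CPM ± 33.7), and its relative Ndufa4l2 had 14 UMIs in all.

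The remaining isoform families were less divided. Cox7a2 was highest in cycling Kupffer-like cells (620 CPM), and Cox7a1, its muscle form, did not exceed a mean of 6.48 CPM in the tested classes. Atp5g1, Atp5g2 and Atp5g3 encode the same mature c subunit of ATP synthase. Of these, Atp5g3 had 551, 511, 456 and 532 CPM in cycling Kupffer-like cells, all above the highest library elsewhere (315 CPM), and Atp5g2 had a mean of 653 CPM there, also above every library of the other classes. Atp5g1 peaked at 360 CPM in monocyte-like cells. Ndufs1, the largest subunit of complex I, was likewise highest in cycling Kupffer-like cells (58.3 CPM ± 15.8), on 8 to 18 UMIs per library. Ndufaf6, an assembly factor of complex I, had 26.3 CPM ± 3.26 in cDC1-like cells and no more than 18.1 CPM in any library of the other classes. Atp5sl, also an assembly factor of complex I, had its highest mean in B-like cells (48.5 CPM ± 7.72), where its range overlapped that of pDC-like cells.

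**Figure D2:**
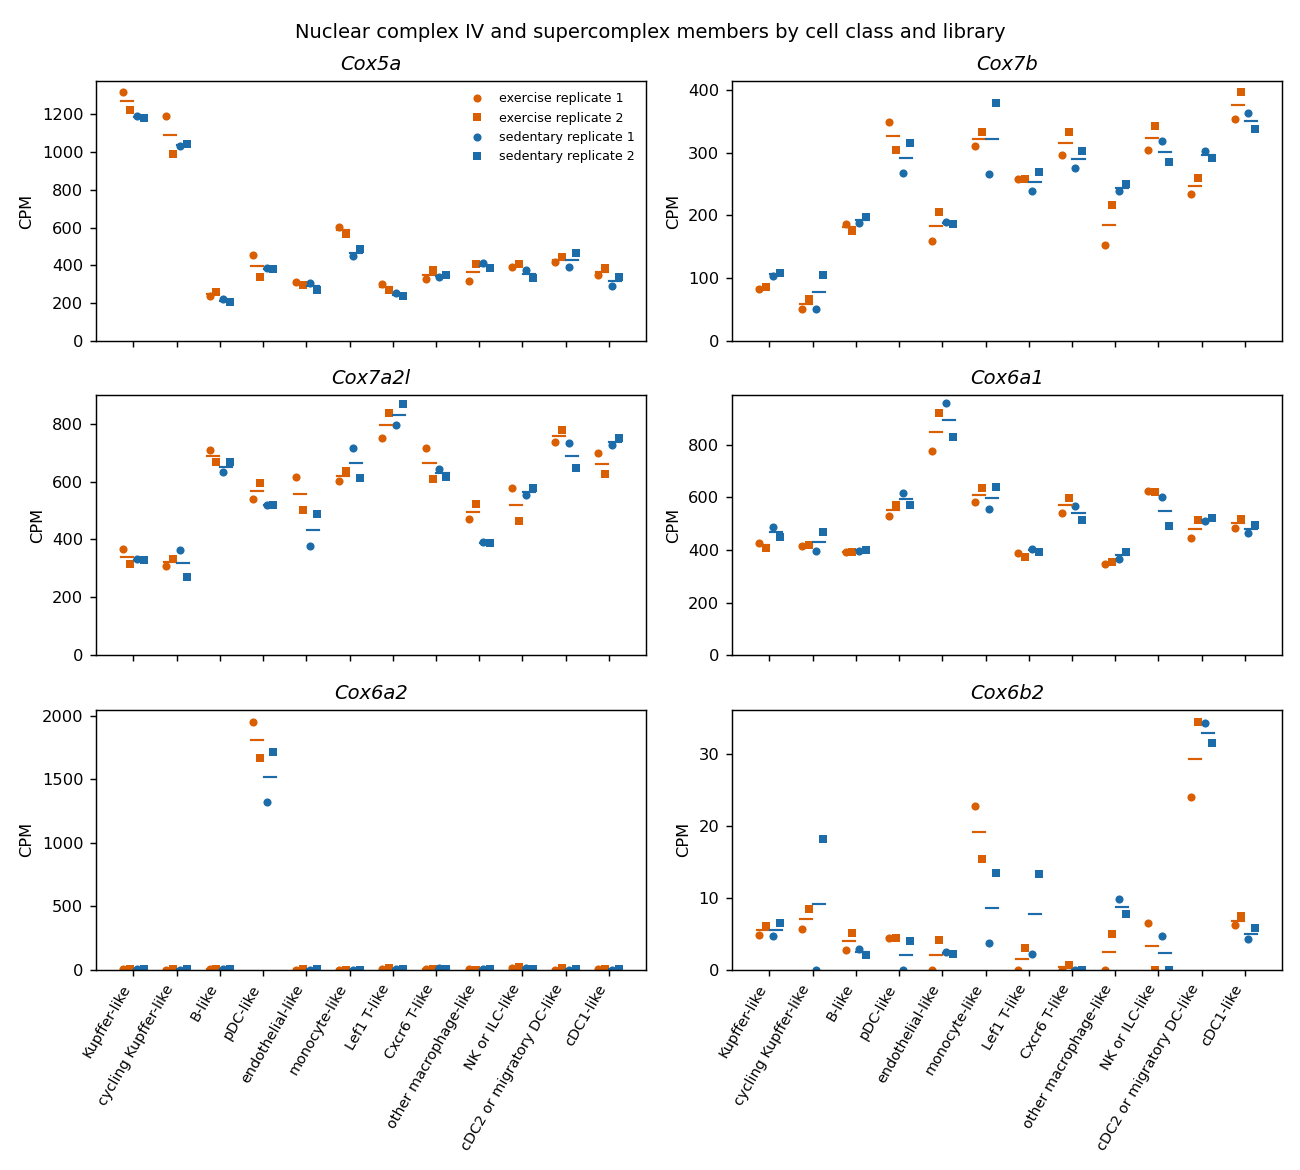
CPM of 6 nuclear genes of complex IV and its supercomplexes in the 12 tested classes, with 1 point per library and a line at each group mean. Cox5a lies at 989 CPM or above in every library of both Kupffer classes, where Cox7b and Cox7a2l are low; Cox6a2 is high in pDC-like cells alone among these classes, and Cox6b2 is highest in cDC2 or migratory DC-like cells.

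Exercise was compared with the sedentary state within each class. In Kupffer-like cells every mitochondrially encoded gene had a negative fitted change and the nuclear subunits lay close to 0, but no gene of either kind passed edgeR's test at the settings used here. Of 96 respiratory chain genes that passed the low count filter, 0 were called by edgeR's quasi-likelihood test at an adjusted p of 0.05, against 40 of 10005 genes (0.400%), of which 1 was higher (0.0100%) and 39 were lower after exercise (0.390%). At an unadjusted p under 0.05 there were 10, all lower after exercise, of which 9 were mitochondrially encoded, against 339 of all genes in that direction (3.39%) and 193 higher (1.93%). DESeq2 called 1 gene, mt-Nd2, and edgeR without the low count filter called 4, all mitochondrially encoded. The median log2 change was -0.35 over 13 mitochondrially encoded genes, 0.03 over 83 nuclear genes, of which 48 were positive, and 0.0011 over all genes tested. Because mitochondrially encoded messengers are cut from shared precursors, the 13 genes are not independent observations.

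The summed level of the 13 genes was 6.48% and 6.01% of UMIs in exercise and 8.11% and 6.95% in sedentary Kupffer-like cells. The groups did not overlap, and the log2 ratio of group means was -0.27. Per cell, however, the 13 genes gave 204 and 198 UMIs in exercise and 195 and 208 UMIs in sedentary libraries, where the groups overlapped. Nuclear subunits gave 70.3 and 73.7 UMIs per cell in exercise and 52.8 and 64.5 in sedentary libraries. Median depth of Kupffer-like cells was 2578 and 2728 UMIs in exercise and 2026 and 2482 in sedentary libraries, and its part in the difference in shares was not tested.

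The median fitted log2 change of mitochondrially encoded genes was -0.36 in complex I, -0.316 in complex III, -0.248 in complex IV and -0.303 in ATP synthase. Ranges overlapped, as mt-Atp8 of ATP synthase had -0.445 and mt-Nd1 of complex I had -0.297. Differences between complexes were not tested. The 7 complex I genes summed to 12960 and 11780 CPM in exercise and 17980 and 14240 CPM in sedentary libraries (log2 ratio -0.38). The core subunit mt-Nd2 (mitochondrial genome, 3914 to 4951) had 2060 and 1870 CPM in exercise and 3350 and 2570 CPM in sedentary libraries. Both exercise libraries lay below both sedentary libraries, and the fitted log2 change was -0.58 ± 0.123 (SE, edgeR, adjusted p = 0.164). mt-Nd3 (9459 to 9806) had 701 and 606 CPM against 1030 and 812 CPM, with a log2 change of -0.50 ± 0.125 (edgeR, adjusted p = 0.346). mt-Nd4 (10167 to 11544) had 3870 and 3340 CPM against 5140 and 4120 CPM, with a log2 change of -0.36 ± 0.119 (edgeR, adjusted p = 0.725).

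The other mitochondrially encoded complex I genes gave log2 changes between -0.30 for mt-Nd1 and -0.55 for mt-Nd6, with the groups apart for each. mt-Nd6 rested on 7.86 to 15.2 CPM. It is encoded on the strand opposite to mt-Nd5 and overlaps its end, and mt-Nd4l overlaps mt-Nd4 and mt-Atp8 overlaps mt-Atp6, so reads in the overlaps could be counted for either gene.

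mt-Cytb, the cytochrome b of complex III (14145 to 15288), had 5920 and 5260 CPM in exercise and 7550 and 6390 CPM in sedentary libraries, a log2 change of -0.32 ± 0.105 (edgeR, adjusted p = 0.739). The complex IV core subunits mt-Co1 and mt-Co3 had separated groups, with mt-Co1 at 12000 and 12700 CPM against 15200 and 14700 CPM (log2 change -0.27 ± 0.0946). Groups overlapped for mt-Co2, which holds the copper site that accepts electrons from cytochrome c, at 5810 and 4880 CPM against 7170 and 5560 CPM. They also overlapped for both ATP synthase subunits, where mt-Atp6, part of the proton channel, had 14900 and 13000 CPM against 16800 and 14500 CPM. In all, exercise lay wholly below sedentary in 10 of the 13 genes, against 17.0% of all genes tested.

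**Figure D3:**
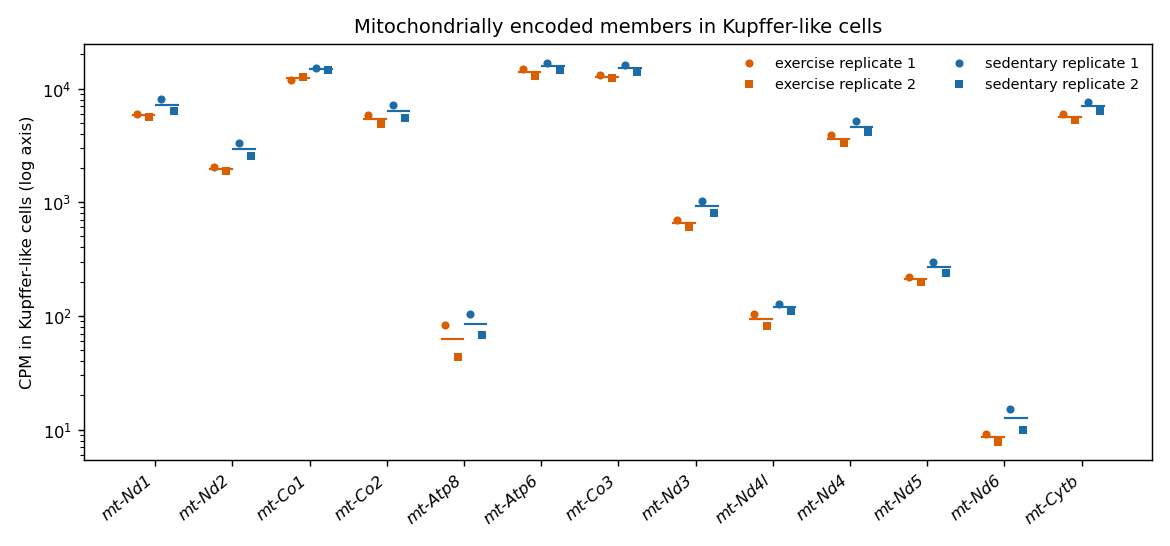
CPM (log axis) of the 13 mitochondrially encoded genes in Kupffer-like cells, with 1 point per library and a line at each group mean; CPM are not divided by gene length, so genes are not compared with each other. Exercise points lie below both sedentary points for 10 of the 13 genes and overlap them for mt-Co2, mt-Atp8 and mt-Atp6.

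Nuclear subunits in Kupffer-like cells were nearly level between the groups. They summed to 22270 and 22330 CPM in exercise and 21920 and 21600 CPM in sedentary libraries, a log2 ratio of 0.04. Complex I subunits had 6654 and 6674 CPM against 6480 and 6360 CPM, complex III 2930 and 2861 against 2819 and 2717 CPM, and complex IV 7127 and 7050 against 6961 and 6951 CPM. These sums did not overlap between groups, and those of ATP synthase did (5557 and 5744 CPM against 5662 and 5573 CPM). All are shares of totals that include mitochondrial UMIs. With totals of nuclear-encoded UMIs, the groups overlapped for the whole nuclear sum and for complexes III and IV. In cells without a hepatocyte UMI the log2 ratio of the nuclear sum was -0.00014, and that of the mitochondrially encoded sum was -0.30. These cells were 66.8% and 72.7% of Kupffer-like cells in exercise but 11.4% and 22.5% in sedentary libraries, with median depths of 2339 and 2566 UMIs against 1423 and 1749 UMIs, so the cells compared differ in selection and depth. Of 83 nuclear genes tested, exercise lay wholly above sedentary in 20 (24.1%), against 17.1% of all genes, and wholly below in 13 (15.7%), against 17.0%.

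The nuclear gene with the smallest p was Cox7b, with a log2 change of -0.33 ± 0.109 (edgeR, adjusted p = 0.731). In complex I, Ndufb5, an accessory subunit of the membrane arm, had 187 and 184 CPM in exercise and 164 and 153 CPM in sedentary libraries (log2 change 0.23 ± 0.0997, edgeR, adjusted p = 0.940). Groups were also apart for Ndufa2 (log2 change 0.16) and for the core subunit Ndufs7 (0.18). The nuclear genes named in this paragraph were picked by small p within their complex in this contrast, which favours separated groups. In complex III the core proteins Uqcrc1 and Uqcrc2 and the hinge protein Uqcrh had separated groups, with Uqcrc2 at 68.0 and 62.7 CPM against 58.4 and 55.4 CPM (log2 change 0.20), while groups overlapped for the Rieske iron-sulfur protein Uqcrfs1 (log2 change 0.08). In complex IV, Cox6a1 (log2 change -0.16), Cox6b1 (0.14) and Cox4i1 (0.12) followed Cox7b. In ATP synthase the smallest p-values were those of Atp5h (0.14), Atp5o (-0.17), Atp5f1 (0.13) and Atp5d (0.14).

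**Figure D4:**
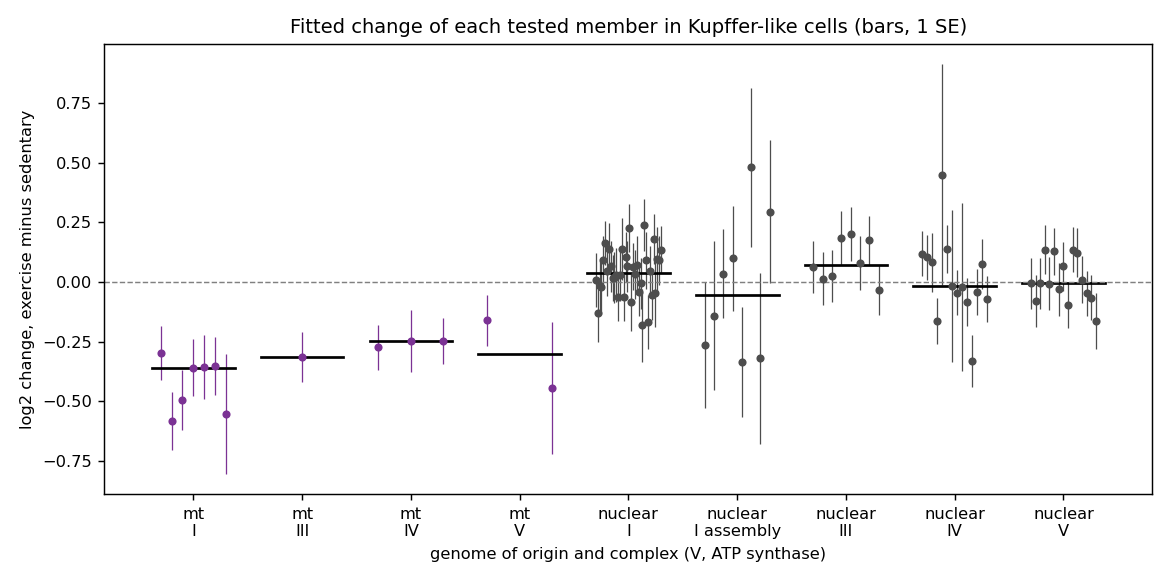
Fitted log2 change (exercise minus sedentary, with 1 SE) of each tested gene in Kupffer-like cells by genome of origin and complex; black lines are medians, and the genes Cox7a2l and Atp5s are left out. All 13 mitochondrially encoded points lie below 0, and the medians of nuclear subunits lie between -0.02 and 0.07 and that of complex I assembly factors at -0.05, without any gene passing the test.

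Kupffer-like cells comprised 4 clusters whose mitochondrially encoded share differed more than the groups did. Cluster 1 (led by Cd163 and Fcna) had 7.69% ± 0.698, cluster 3 (led by BC005537 and Hmox1) had 11.8% ± 0.475, cluster 4 (led by Cd207 and C1qb) had 4.84% ± 0.459, and cluster 6 (led by Cxcl13 and Cd68) had 3.85% ± 1.37. In cluster 3 the libraries had 12.1% and 11.2% after exercise and 12.2% and 11.8% without, and the groups overlapped. In cluster 1 they had 7.18% and 7.16% against 8.65% and 7.75%, in cluster 4 they had 4.46% and 4.53% against 5.47% and 4.90%, and in cluster 6 they had 2.11% and 3.49% against 5.31% and 4.46%. Exercise libraries were below sedentary libraries in these 3 clusters.

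The clusters also took different shares of the class. Cluster 4 held 25.7% and 35.4% of exercise and 16.0% and 24.3% of sedentary Kupffer-like cells, and cluster 6 held 8.26% and 9.23% against 16.5% and 16.5%. Clusters were made from genes that may themselves differ between the groups, so these shares are not compared. Nuclear subunits averaged 30020 CPM in cluster 6, 23220 CPM in cluster 4, 21590 CPM in cluster 1 and 16190 CPM in cluster 3, so the cluster with the highest mitochondrially encoded share had the lowest nuclear level.

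Over depth ranges of all Kupffer-like cells, the median share fell as depth rose. The clusters did not follow this order. Cluster 6, with a median of 1423 UMIs, had the lowest share, and cluster 3, with 1570.5 UMIs, the highest. Clusters 1 and 4 had medians of 2745 and 4957 UMIs. Among cells with under 1500 UMIs the median share was 10.2% and 9.53% in exercise and 9.63% and 9.20% in sedentary libraries, and the groups overlapped. Groups overlapped also from 1500 to under 2500 UMIs. From 2500 to under 5000 UMIs the medians were 6.15% and 5.74% against 7.15% and 6.71%, and at 5000 UMIs or more they were 4.30% and 4.17% against 5.12% and 4.75%, with exercise below sedentary libraries in both.

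**Figure D5:**
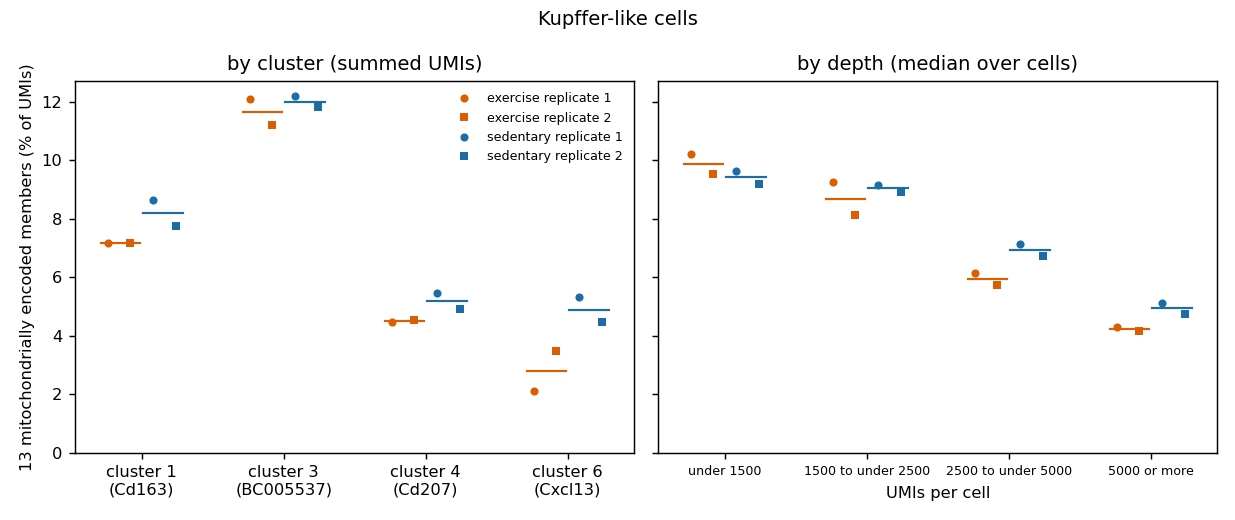
Share of UMIs (%) from the 13 mitochondrially encoded genes in Kupffer-like cells by cluster (left, summed UMIs) and by UMIs per cell (right, median over cells), with 1 point per library and a line at each group mean. Groups overlap in cluster 3 and in both depth ranges below 2500 UMIs, and exercise points lie below sedentary points elsewhere.

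In the other 11 classes, 0 of 937 tests of respiratory chain genes passed with edgeR or with DESeq2, while 31 had an unadjusted p under 0.05 in edgeR. Over all genes, percentages called were 0.0254% in Cxcr6 T-like, 0.112% in Lef1 T-like, 0.0297% in NK or ILC-like, 0.0310% in cycling Kupffer-like, 0.273% in endothelial-like and 0.0965% in pDC-like cells, and 0% in the other 5 classes. Mitochondrially encoded genes made up 25 of the 31, and all 25 were lower after exercise. Over all genes of these classes, 2.76% of tests were lower and 2.16% higher at that level. Of 133 tests of mitochondrially encoded genes in these classes, 111 gave a negative change, with class medians from -0.27 in other macrophage-like to -0.02 in pDC-like cells. The summed share did not overlap between groups in 5 of the 12 classes, all with exercise lower: Kupffer-like, cycling Kupffer-like, other macrophage-like, endothelial-like and Lef1 T-like cells. Of single genes tested in Kupffer-like cells, 17.0% had exercise wholly below sedentary, and all classes share the same 4 libraries. In other macrophage-like cells the summed share was 2.66% and 2.55% after exercise against 3.37% and 2.92%. In each of these 5 classes the hepatocyte markers were also lower after exercise without overlap, as in Lef1 T-like cells with 20.9 and 14.7 CPM against 260.0 and 58.6 CPM. Immediate early and heat shock genes were lower without overlap in the same classes except endothelial-like cells, with 5321 and 5502 CPM against 7934 and 12320 CPM in other macrophage-like cells. Red blood cell genes were lower without overlap in all but endothelial-like cells, where sedentary replicate 1 alone reached 12650 CPM. Summed levels of these lists are not given for the 7 classes whose summed shares overlapped. In these 7 classes too, cells with a hepatocyte UMI were more frequent in both sedentary libraries. In monocyte-like cells replicates 2 were close, with 39 of 94 exercise and 42 of 104 sedentary cells without one. Higher hepatocyte UMIs in sedentary libraries were thus not particular to the 5 classes. In B-like cells, 344 of 362 and 358 of 387 exercise cells had no such UMI. Of sedentary B-like cells, 489 of 822 and 479 of 572 had none. In pDC-like cells the counts were 91 of 98 and 172 of 183 against 45 of 87 and 86 of 114. The part of hepatocyte, red blood cell and stress transcripts in any of these classes was not tested. Nuclear subunits had class medians from -0.08 in cDC2 or migratory DC-like to 0.11 in NK or ILC-like cells. Their summed level did not overlap between groups in 4 of the 12 classes, all with exercise higher. These were Kupffer-like, Lef1 T-like, NK or ILC-like and pDC-like cells. The totals here include mitochondrial UMIs, and with totals of nuclear-encoded UMIs the groups overlapped in Kupffer-like cells. Of single genes tested in Kupffer-like cells, 17.1% had exercise wholly above sedentary.

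Whether the exercise effect differed between Kupffer-like cells and another class was tested with an interaction term in edgeR, a test chosen after the changes in each class had been seen and run once for each of the 11 classes without adjustment across them. Against B-like cells the effect differed for 2 of 96 respiratory chain genes, mt-Nd4 and mt-Cytb (0.0789% of all genes called), and against pDC-like cells for the same 2 genes (0.168%). Against the other 9 classes 0 were called; percentages of all genes called there were 0% for cycling Kupffer-like, 0.0308% for cDC1-like, 0.0682% for Cxcr6 T-like, 0.0707% for NK or ILC-like, 0.0922% for other macrophage-like, 0.142% for Lef1 T-like, 0.169% for cDC2 or migratory DC-like, 0.189% for endothelial-like and 0.220% for monocyte-like cells. For mt-Nd4, B-like cells had 2780 and 2620 CPM in exercise and 2660 and 2210 CPM in sedentary libraries, which overlapped, and the difference in log2 change was -0.45 ± 0.0869 (edgeR, adjusted p = 0.0127). The call was lost without sedentary replicate 1 (edgeR, adjusted p = 0.146) or sedentary replicate 2 (edgeR, adjusted p = 0.0708). For mt-Cytb the difference was -0.37 ± 0.0773 (edgeR, adjusted p = 0.0322), and among the leave-one-out fits it was called only without exercise replicate 1 (edgeR, adjusted p = 2.94e-04; 0.0551 to 0.381 without each of the other 3 libraries). Neither difference from pDC-like cells was called once any library was left out.

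Genes that work with the chain but lie outside these families did not pass the test in Kupffer-like cells. Complex II (Sdha, Sdhb, Sdhc and Sdhd), which is wholly nuclear, had 2 positive and 2 negative changes, and Sdha, its flavoprotein, had 119 and 113 CPM in exercise and 125 and 108 CPM in sedentary libraries. Cytochrome c (Cycs) had 208 and 178 CPM against 209 and 223 CPM (log2 change -0.17). Of 16 tested genes of mitochondrial transcription and RNA handling, 7 changes were positive and 9 negative, and Tfam, which packages and transcribes mitochondrial DNA, had a log2 change of 0.26 (edgeR, adjusted p = 0.977). Of 76 mitochondrial ribosomal protein genes, 53 changes were positive, with a median log2 change of 0.09 against 0.0011 over all genes. Among 10 nuclear regulators, Myc had the smallest p, with 29.1 and 29.4 CPM in exercise and 39.6 and 45.6 CPM in sedentary libraries (log2 change -0.55 ± 0.140, edgeR, adjusted p = 0.356). The lists of complex III and IV assembly (19 genes tested), further complex I assembly (6), regulators of the chain (8) and protein import (18) also had 0 genes called in either direction. No gene of any of these lists was called in the other 11 classes.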

How the data were processed

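The deposited values are raw UMI counts per gene and barcode, made by the authors with Cell Ranger and Seurat 3.1 on mm10 (GRCm38), per the submitters' processing notes; the Cell Ranger version, the use of strand and the handling of reads shared with pseudogenes or nuclear copies of mitochondrial DNA are not given in the sources used here. Series text describes alignment to pre-mRNA, so introns may be counted, and speaks of nuclei where the protocol describes cells. Total counts were 10050976 to 14849778 UMIs per library. Barcodes needed 500 UMIs, 200 genes and no more than 20% mitochondrial UMIs. Doublets were scored against simulated ones, and the highest scoring 68 to 143 barcodes per library were removed, which left 14560 of 15383.

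Counts scaled to 10000 per cell and log-transformed gave 2000 variable genes without the respiratory chain genes, 30 principal components, 20 neighbours and 20 Leiden clusters (resolution 1.0; scikit-learn 1.9.0, leidenalg 0.10.2). Clusters were named by hand from marker lists after they were seen, hence "like". A first clustering, with scaled genes and edges weighted by shared neighbours, gave 24 clusters. It was replaced after its clusters and their make-up by library were seen and before any exercise test, because it gave Kupffer-like clusters with 86.4% and with 7.5% exercise cells. Its effect is given in the closing section.

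UMIs were summed per library and class. Each class with at least 20 cells per library was fitted with edgeR 4.0.16 (R 4.3.3; TMM, filterByExpr, quasi-likelihood F-test, Benjamini-Hochberg over all genes, 0.05); DESeq2 1.42.0 was an alternative. The fit was tested on simulated data with an assumed spread, the same for every gene and not estimated from these data. At a simulated log2 change of 1, the Kupffer-like fit called 62.2% of genes and the interaction test against B-like cells 11.0%. These percentages hold for that assumed spread and may differ from those of the real fits. Smaller changes were not simulated, so a count of 0 called does not show that they were absent. Genes were named by rule: all mitochondrially encoded genes, up to 4 nuclear genes per complex with the smallest p in Kupffer-like cells, isoform families, and the 10 genes with the largest ratio of highest to median class; Uqcr11 and the others listed beside it with a high ratio in Kupffer-like cells were added after their values were seen. A gene that the rule names is not reported here. In addition, the breakdowns by Kupffer-like cluster and depth and the printed promoters were chosen after values were seen. Genes, lists and tests were chosen with earlier results of these data known. Positions are from GENCODE M21 (GRCm38).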

Additional observations from a re-analysis of the deposited data

Results flagged for a closer look

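The 4 differences between classes given here passed a test of the difference itself, the edgeR interaction term, which was chosen after the changes per class had been seen. The exercise effect on mt-Nd4 was -0.36 in Kupffer-like and 0.11 in B-like cells (log2), a fitted difference of -0.45 (edgeR, adjusted p = 0.0127). For mt-Cytb the effects were -0.32 and 0.08, a difference of -0.37 (edgeR, adjusted p = 0.0322). Against pDC-like cells, where the effects were 0.08 and 0.07, the differences were -0.46 for mt-Nd4 (edgeR, adjusted p = 0.0210) and -0.41 for mt-Cytb (edgeR, adjusted p = 0.0408). Leaving out single libraries gave adjusted p-values of 2.94e-04 to 0.146 for mt-Nd4 and 2.94e-04 to 0.381 for mt-Cytb against B-like cells, and of 0.0771 to 0.908 and 0.199 to 0.908 against pDC-like cells. The difference kept its negative sign each time.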

How the results depend on the processing

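In Kupffer-like cells the count of respiratory chain genes called was 0 in the edgeR analysis, 1 with DESeq2 (mt-Nd2), 4 without the low count filter, all mitochondrially encoded, and 8 with the replicate block, again all mitochondrially encoded; leaving out 1 library gave 0 to 1 (mt-Nd2, without sedentary replicate 2). It was 0 in every other alternative run, the first clustering and the class without cluster 3 included, both added after the data were seen. In the other classes, leaving out 1 library gave 0 to 2 calls: mt-Co1 in Lef1 T-like and in other macrophage-like cells without exercise replicate 2, mt-Nd2 in cycling Kupffer-like cells without sedentary replicate 1, and mt-Nd2 in Cxcr6 T-like cells without sedentary replicate 2. Same-numbered libraries had deviations correlated at 0.182 over genes in Kupffer-like cells, but with 2 pairs and no shared animal in the labels they share only a number. Serum alanine aminotransferase was also nearer within a number (26 and 33 U/L for number 1, 59 and 56 U/L for number 2).

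The median change of the mitochondrially encoded genes in Kupffer-like cells was -0.35 and stayed negative, from -0.43 without sedentary replicate 2 to -0.22 without sedentary replicate 1, with -0.24 at a limit of 10% mitochondrial UMIs and -0.42 with no limit. Their summed log2 ratio of -0.27 ranged from -0.38 (without sedentary replicate 2) to -0.16 (without sedentary replicate 1) when 1 library was left out, was -0.19 at 10% and -0.33 with no limit, and was -0.26 under the first clustering. The nuclear sum, at 0.04, moved to 0.0151 with totals of nuclear-encoded UMIs, where only the totals differ. It moved to 0.0106 at 10%, 0.0499 with no limit, 0.0141 without cluster 3 and -0.00014 in cells without a hepatocyte UMI. The cause of these other moves was not tested. Atp5f1 changed sign in the last of these (-0.0307, against 0.129). Class levels moved for the mitochondrially encoded sum at 10% (56080 CPM against 68850), for nuclear subunits at 10% (23100 CPM) and on nuclear totals (23660 CPM, against 22030), and for Cox5a on nuclear totals (1317 CPM against 1227), where the smaller total raises each value. Over all genes, 40 were called in Kupffer-like cells, against 77 with DESeq2, 216 without the filter, 209 with the replicate block, 6 in cells without a hepatocyte UMI, 9 without exercise replicate 2 and 82 without sedentary replicate 2.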
